A study of Homo sapiens with 4 samples.

Results

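Expression was described for 10 genes of the surface colonocytes, the absorptive cells that face the lumen of the colon: SLC26A3, AQP8, CA2, CA4, CEACAM1, CEACAM7, GUCA2A, SLC51A, SLC51B and RNF186. They are 10 of the 19775 genes named on the array and are read by 18 of its 54675 probe sets, each of them annotated to a single gene. The genes were chosen by name from their measured signals on these same 4 arrays, with their differences between the arrays already known. Every level and difference below is therefore a description. No threshold entered the choice of the genes, whereas the calls and the filter on low signal below rest on chosen limits. Of the 10 genes, 8 passed the filter on low signal through 14 probe sets, and CA4 and SLC51A did not.

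The cells were T84, a single established line from a human colorectal carcinoma that forms a polarised layer on a permeable filter, so the arrays describe a tumour line and not colon tissue. The 4-miRNA array held T84 cells that had received oligonucleotides for both miR-451 and miR-338-3p, together with those for miR-33a and for miR-210, harvested on day 5 after transfection. The 2-miRNA array held T84 cells that had received only those for miR-451 and miR-338-3p, harvested on day 5. The day 7 control and the day 5 control held T84 cells given a short RNA with little similarity to human miRNAs, harvested on day 7 or on day 5. All 4 cultures shared 24 mm filters with 0.4 µm pores, a seeding of 500000 cells per well and 15 pmol of oligonucleotide whose share for each miRNA of a mix the sources used here do not state. If it was divided among the miRNAs, the 4-miRNA cells received less of each miRNA held by both mixes, and a lower dose and the added miRNAs cannot be told apart.

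Each group had 1 Affymetrix U133 Plus array, hybridised with label made from total RNA. No array had a replicate, so the error between cultures was not measured, no test across samples was possible, and precision is limited by how few arrays there were. Signals are given after each array was scaled to the same trimmed mean of 500, and a difference is one of log2 values of the scaled signal plus 32. A gene is called higher or lower at a log2 difference of 1 or more in size, which is 2-fold on that scale. A fold, where given, is the ratio of the scaled signals, and where a probe set was under the median of the dimmer array only a lower bound is given. These are bulk RNA measurements, in which fewer cells of a type and less RNA per cell cannot be told apart. As a measure of probe set error, the SD of the gap between the log2 differences of the 2 probe sets of a gene, over 1736 well-measured genes, was 0.26 for the 4-miRNA array minus the 2-miRNA array. It was 0.39 for the day 7 control minus the day 5 control. Between either miRNA array and either control it was between 0.72 and 0.82.

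In the colon, chloride is taken up from the lumen by SLC26A3 in exchange for bicarbonate, which carbonic anhydrases make from carbon dioxide, and water follows the salt through the epithelium. Guanylin, encoded by GUCA2A, is the hormone released into the lumen that raises cyclic GMP through the receptor GUCY2C and turns the epithelium from absorption towards secretion. CEACAM proteins coat the apical membrane and the glycocalyx, and OSTα and OSTβ together carry bile acids out across the basolateral membrane. In the intestine these genes are known for high levels in mature surface cells and low levels in the crypt, where cells divide.

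The day 5 arrays differed in treatment by the miRNAs and perhaps by the dose of each shared one. The mature sequences of the transfected miRNAs are therefore shown. They are from RefSeq (GRCh38.p14), 5′ to 3′, with the seed, bases 2 to 8, in capitals; of miR-451 no sequence was used here. The labels name no arm for miR-210 and miR-33a, so the 3p arm of the first and the 5p arm of the second stand for them.
hsa-miR-338-3p: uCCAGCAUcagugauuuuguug
hsa-miR-210-3p: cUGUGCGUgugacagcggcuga
hsa-miR-33a-5p: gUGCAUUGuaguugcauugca
The 3 seeds were different from each other. The first miRNA was in both mixes, the other two in the 4-miRNA mix.

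The promoters of SLC26A3, RNF186 and AQP8 are shown because RNF186 and AQP8 had the course over the 4 arrays most like that of SLC26A3. Each line holds the 250 bases before the start of the gene in RefSeq (GRCh38.p14), 5′ to 3′ on the gene's strand, with matches to the HNF1 motif GTTAAT and the HNF4 motif CAAAGT in capitals on either strand. SLC26A3 lies at chr7:107803224-107803473 on the minus strand, RNF186 at chr1:19815284-19815533 on the minus strand and AQP8 at chr16:25216697-25216946 on the plus strand.
SLC26A3: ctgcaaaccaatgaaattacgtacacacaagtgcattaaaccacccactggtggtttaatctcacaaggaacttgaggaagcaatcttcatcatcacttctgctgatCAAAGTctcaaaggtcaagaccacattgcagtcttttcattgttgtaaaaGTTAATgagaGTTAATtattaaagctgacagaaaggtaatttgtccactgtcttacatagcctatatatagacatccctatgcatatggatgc
RNF186: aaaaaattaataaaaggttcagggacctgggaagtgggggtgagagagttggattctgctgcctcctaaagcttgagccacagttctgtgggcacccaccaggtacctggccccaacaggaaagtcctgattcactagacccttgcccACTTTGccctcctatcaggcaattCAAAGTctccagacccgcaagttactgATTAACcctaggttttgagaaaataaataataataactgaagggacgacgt
AQP8: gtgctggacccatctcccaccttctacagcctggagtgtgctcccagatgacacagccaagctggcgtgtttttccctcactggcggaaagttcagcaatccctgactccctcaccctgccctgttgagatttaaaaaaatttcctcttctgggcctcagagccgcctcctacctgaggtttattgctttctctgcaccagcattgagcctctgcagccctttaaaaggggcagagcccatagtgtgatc
The SLC26A3 window held GTTAAT at bases 93 to 88 and again at bases 83 to 78 before the start, and CAAAGT at bases 143 to 138. The RNF186 window held GTTAAT at bases 51 to 46 on the other strand, and CAAAGT at bases 102 to 97 on the other strand and at bases 78 to 73. The AQP8 window held neither.

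Windows were used for 8 of the 10 genes, all but CA2 and CA4. Promoters on chromosome 8 were left out of all counts of windows. GTTAAT was in 2 of the 8 (SLC26A3 and RNF186) and in 6.22% of all 27305 promoter windows of that length, counted on both strands. CAAAGT was in 4 of the 8 (SLC26A3, CEACAM1, GUCA2A and RNF186) and in 10.4% of all windows. The GATA site AGATAA was in GUCA2A alone, at bases 130 to 125 and 105 to 100 on the other strand, and in 9.37% of all windows. The CDX site TTTATG (2736 of the 27305 windows) and the core of the hypoxia response element, ACGTG (18.7% of them), were in none of the 8. These are matches of letters in a window, and no binding was measured. Of the 8 windows that of SLC26A3 had the lowest share of G and C, 37.6%, against a median of 58.0% over all windows.

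The SLC26A3 signal, of the apical chloride-bicarbonate exchanger whose loss causes congenital chloride diarrhoea, was 1365 with 4 miRNAs and 794 with 2 miRNAs, against 3417 in the day 7 control and 223 in the day 5 control. All 4 values were apart, with the day 7 control highest, the day 5 control lowest and the miRNA arrays between them. The log2 difference from the day 5 control was 3.76 for the day 7 control, 2.46 for the 4-miRNA array and 1.70 for the 2-miRNA array, as signal 15.4-fold, 6.13-fold and 3.57-fold. Against the day 7 control the 4-miRNA array was 2.50-fold lower (log2 difference −1.30) and the 2-miRNA array 4.30-fold lower (−2.06). A second probe set of SLC26A3 was under the median on every array, at 41.8 and 39.4 with 4 and 2 miRNAs, against 89.2 on day 7 and 23.1 on day 5 in the controls, and has no fold. With the median over both probe sets the differences from the day 5 control were 2.45 for the day 7 control, 1.44 for the 4-miRNA array and 1.04 for the 2-miRNA array, still past the limit of 1.

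AQP8, a channel for water and hydrogen peroxide in the apical membrane of colonocytes, had a signal of 1183 with 4 miRNAs and 709 with 2 miRNAs, against 4950.0 in the day 7 control and 286 in the day 5 control. The arrays stood in the same order as for SLC26A3, but the day 7 control stood farther from the miRNA arrays. Its differences from the day 5 control were 3.97 for the day 7 control, 1.93 for the 4-miRNA array and 1.22 for the 2-miRNA array. Against the day 7 control it was 4.19-fold lower with 4 miRNAs (−2.04) and 6.98-fold lower with 2 miRNAs (−2.75). In the day 7 control minus the day 5 control AQP8 held rank 1 and SLC26A3 rank 2 of 12264 expressed genes.

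RNF186, an E3 ubiquitin ligase of the endoplasmic reticulum in colonic epithelium, had a signal of 1690.2 with 4 miRNAs and 990.1 with 2 miRNAs, against 2859 in the day 7 control and 376 in the day 5 control. It kept the order of SLC26A3 and AQP8, with the 4-miRNA array nearer to the day 7 control than for either of them. The differences from the day 5 control were 2.83 for the day 7 control, 2.08 for the 4-miRNA array and 1.33 for the 2-miRNA array. Against the day 7 control only the 2-miRNA array passed the limit (−1.50), while the 4-miRNA array was at −0.75.

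**Figure D1:**
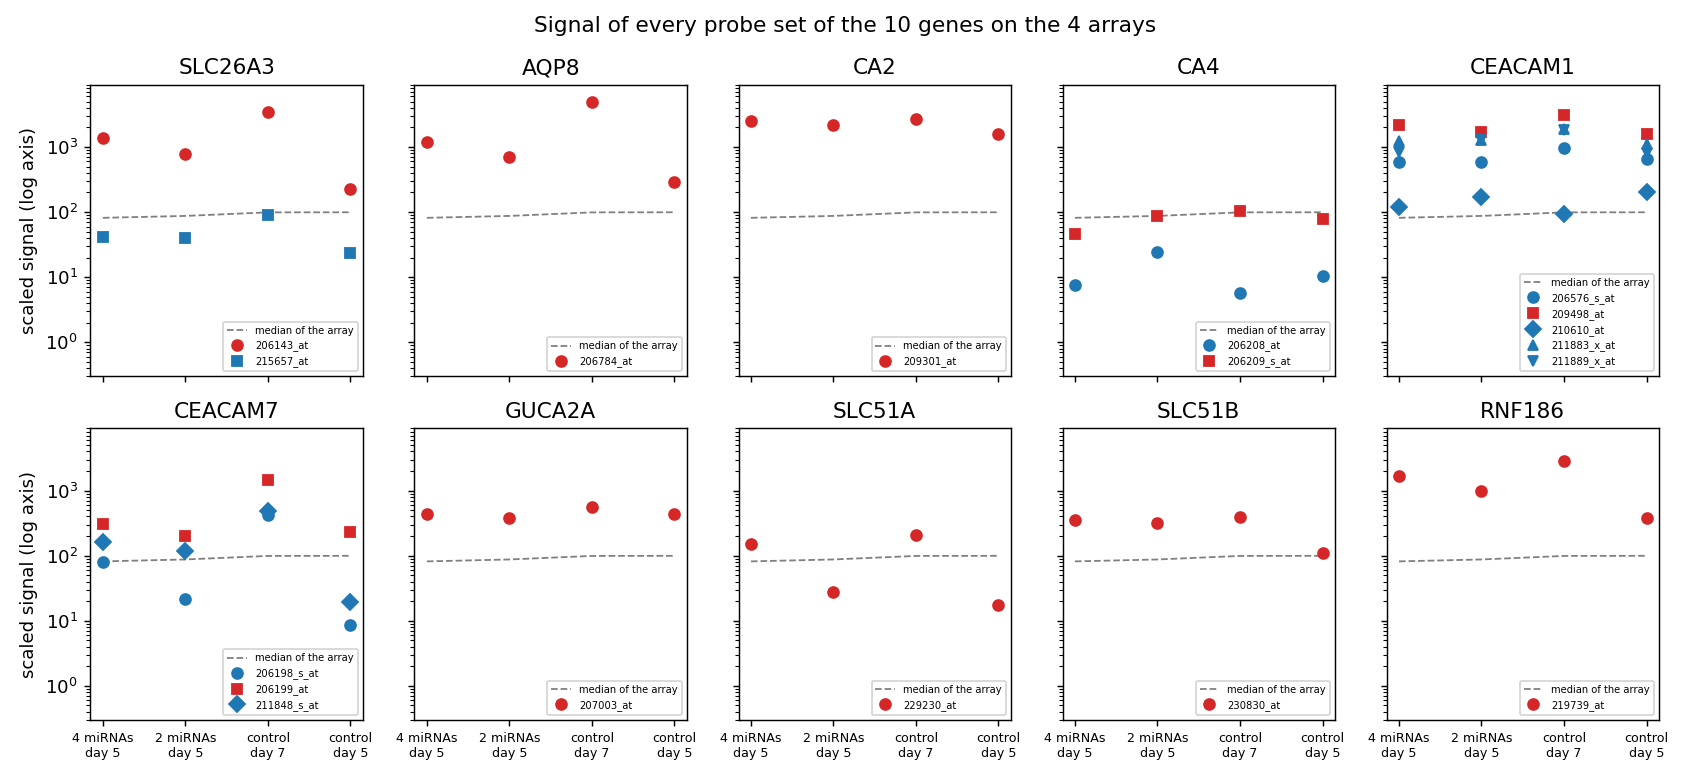
Scaled signal (log axis) of each probe set of the 10 genes on the 4 arrays, 1 array per group; the red points are the probe set that stands for the gene, the blue points its other probe sets and the dashed line the median of each array. SLC26A3, AQP8 and RNF186 are highest on the day 7 control (3417, 4950.0 and 2859) and lowest on the day 5 control (223, 286 and 376), whereas CA2 and GUCA2A have similar signals on all 4 arrays.

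CA2, the abundant cytosolic carbonic anhydrase that supplies bicarbonate for the exchanger, had signals of 2515 and 2205 with 4 and 2 miRNAs, against 2742 and 1603 in the day 7 and day 5 controls. The order of the arrays was that of SLC26A3, but the span was small and no difference passed 2-fold: from the day 5 control it was 0.76 for the day 7 control, 0.64 with 4 miRNAs and 0.45 with 2 miRNAs. CA4, the carbonic anhydrase anchored to the apical membrane, did not pass the filter. One of its probe sets was under the median on every array (5.7 to 24.4), and the other (46.4 and 87.3 with 4 and 2 miRNAs, 104 and 77.1 in the day 7 and day 5 controls) was at or just past the median where it passed it. No direction of CA4 is read from these signals.

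CEACAM7, a cell adhesion molecule of the apical surface of colonocytes, had 3 probe sets that passed the filter, and they did not give the same differences. The brightest had a signal of 311 with 4 miRNAs and 201 with 2 miRNAs, against 1468 in the day 7 control and 232 in the day 5 control. On this probe set the day 7 control stood alone, 6.32-fold above the day 5 control (2.51), 4.73-fold above the 4-miRNA array and 7.31-fold above the 2-miRNA array. The differences of the miRNA arrays from the day 5 control were 0.38 with 4 miRNAs and −0.18 with 2 miRNAs. The second probe set had 163 and 117 with 4 and 2 miRNAs, against 481 in the day 7 control and 19.3 in the day 5 control, which lay under that array's median. From it the day 7 control was at least 4.85-fold, the 4-miRNA array at least 1.64-fold and the 2-miRNA array at least 1.17-fold the day 5 control. The third passed the filter only through the day 7 control, at 428, and was under the median on the other arrays at 80.5 and 21.6 with 4 and 2 miRNAs and 8.5 in the day 5 control. All 3 thus had their highest signal in the day 7 control, and in the other 3 arrays they differed: the median over the probe sets gave 1.93 with 4 miRNAs and 1.53 with 2 miRNAs minus the day 5 control, past the limit that the brightest did not pass.

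CEACAM1, the related adhesion molecule that carries an inhibitory signalling tail, had 5 probe sets that passed the filter. The brightest had 2147 and 1681 with 4 and 2 miRNAs, against 3067 and 1613 in the day 7 and day 5 controls. Its differences from the day 5 control were 0.91 for the day 7 control, 0.41 with 4 miRNAs and 0.06 with 2 miRNAs, all within 2-fold. A further 3 of the 5 were also highest in the day 7 control, and 1 of these passed the limit there (1.16, with 829 and 1272 on the 4-miRNA and 2-miRNA arrays against 1846 on day 7 and 810 on day 5 in the controls). The dimmest ran the other way, with 120 and 168 with 4 and 2 miRNAs, against 93.8 in the day 7 control, under the median, and 206 in the day 5 control, at least 2.08-fold lower on day 7. Probe sets whose names end in s_at or x_at can also read related transcripts, so the signals of the CEACAM family may not be separate. In their promoter windows CEACAM1 (chr19:42528482-42528731, minus strand) and CEACAM7 (chr19:41688271-41688520, minus strand) had 182 identical aligned bases, 72.8% of a window, against 118 to 143 in the other 27 pairs of the 8 genes.

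GUCA2A had signals of 430.4 and 377 with 4 and 2 miRNAs, against 560.2 and 432 in the day 7 and day 5 controls. The 4-miRNA array and the day 5 control had nearly the same signal, the 2-miRNA array was lowest, and no difference between any pair of arrays was larger than 0.54 in size. From the day 5 control it was 0.35 for the day 7 control, −0.00 with 4 miRNAs and −0.18 with 2 miRNAs.

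SLC51B, the β subunit of the basolateral bile acid exporter, had signals of 352 and 314 with 4 and 2 miRNAs, against 393 in the day 7 control and 111 in the day 5 control. Here the day 5 control stood alone, and both miRNA arrays were within 0.30 of the day 7 control. The differences from the day 5 control were 1.58 for the day 7 control, 1.43 with 4 miRNAs and 1.28 with 2 miRNAs, as signal 3.56-fold, 3.18-fold and 2.83-fold. With a pseudocount of 100 the last fell under the limit, at 0.97. SLC51A, the α subunit, did not pass the filter: its signals were 152 with 4 miRNAs and 207 in the day 7 control, against 27.6 with 2 miRNAs and 17.6 in the day 5 control. The last 2 values were under the median of their arrays, so the subunits differed on the 2-miRNA array, where SLC51B was near its day 7 level and SLC51A was not. The SLC51A signal of the day 7 control was at least 2.08-fold that of the day 5 control, that of the 4-miRNA array at least 1.53-fold, and the 4-miRNA array was at least 1.74-fold the 2-miRNA array.

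Over the 8 genes that passed the filter, 5 were called higher in the day 7 control than in the day 5 control (AQP8, SLC26A3, RNF186, CEACAM7 and SLC51B) and 0 lower, where 3.35% of all expressed genes were called higher and 2.41% lower. All 8 differences were above 0, with a median of 2.04 against −0.01 over all expressed genes; over all 10 genes without the filter 6 were past the limit and the median was 1.92. This is the comparison in which the genes had been noticed, and nothing is read from the count. The same limit holds for the counts and medians of the other comparisons. The differences between all 4 arrays were known when the genes were chosen. The probe sets that stand for the 8 genes were above the median on all 4 arrays, so none of the 8 passed the filter only through an array in which it was high.

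With 4 miRNAs, 4 of the 8 were called higher than in the day 5 control (SLC26A3, RNF186, AQP8 and SLC51B) and 0 lower, where 8.03% of expressed genes were called higher and 6.70% lower. The median was 1.03, against −0.15 over all expressed genes, and 7 of 8 were above 0. With 2 miRNAs the same 4 genes were called higher and 0 lower, where 8.11% of expressed genes were called higher and 6.37% lower. The median was 0.84, against −0.16 over all, and 6 of 8 were above 0. These comparisons share the day 5 control with each other and with the day 7 comparison, so a low signal on that array would raise all 3 differences of a gene. The 4 largest differences with 4 miRNAs held ranks 44 (SLC26A3), 117 (RNF186), 164 (AQP8) and 455 (SLC51B) of 12264, and with 2 miRNAs ranks 300, 581, 690 and 619.

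**Figure D2:**
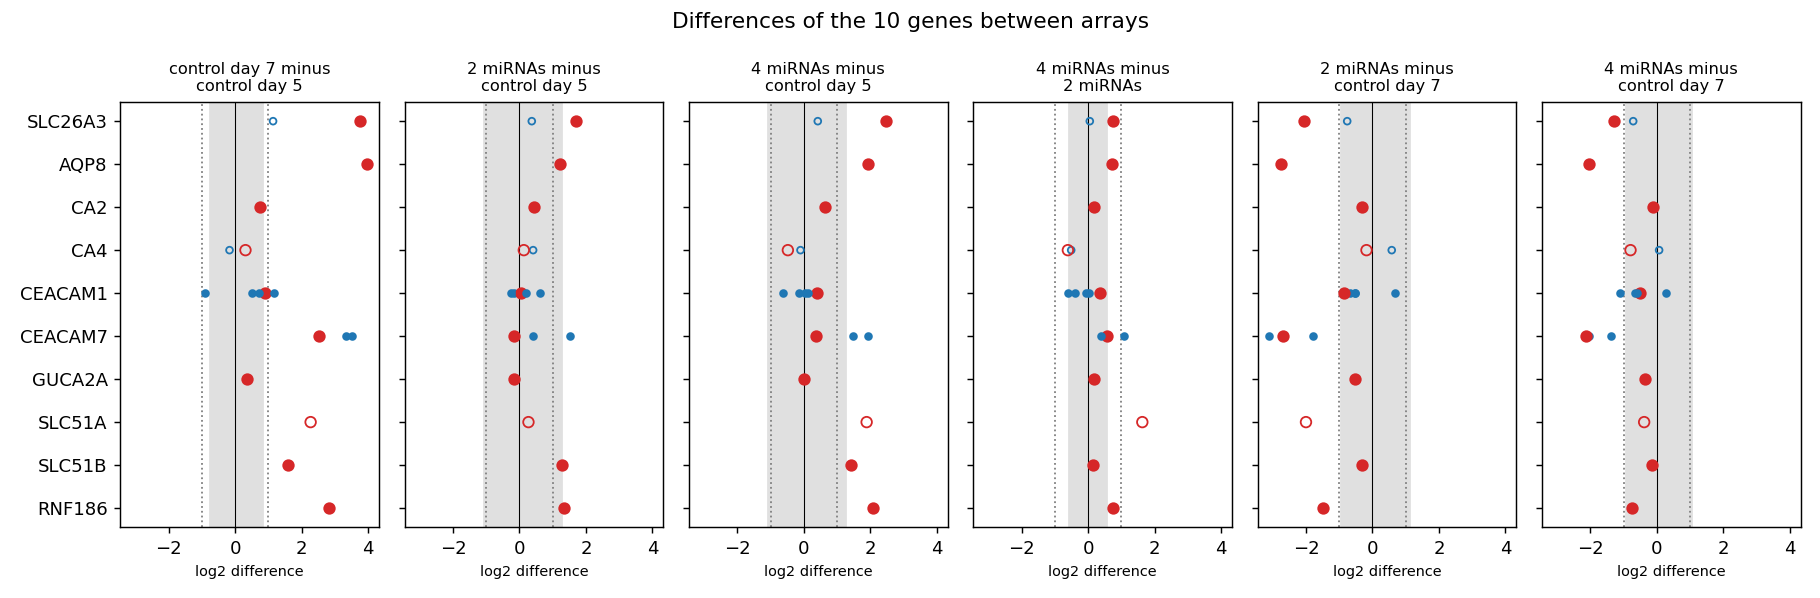
Log2 differences of the 10 genes in 6 comparisons; large red points are the probe set that stands for the gene, small blue points the others and open points probe sets that did not pass the filter, dotted lines mark a difference of 1 in either direction and the grey band holds the central 90% of all expressed genes. AQP8 and SLC26A3 lie farthest to the right for the day 7 control minus the day 5 control (3.97 and 3.76), and both lie left of 0 for each miRNA array minus the day 7 control.

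Between the miRNA arrays, 0 of the 8 genes were called higher and 0 lower with 4 miRNAs than with 2, where 1.04% of expressed genes were called higher and 1.33% lower. All 8 were above 0 on the probe set that stands for the gene, from 0.15 for SLC51B to 0.76 for SLC26A3. RNF186 was at 0.75, AQP8 at 0.71 and CEACAM7 at 0.56. As the genes were chosen with these differences known, nothing is read from their shared direction. Their median was 0.45, against 0.00 over all expressed genes, and of the 4 other probe sets of CEACAM1 only 1 was above 0, with −0.60 for the median over its probe sets. Of genes that did not pass the filter, SLC51A had 152 against 27.6 (log2 difference 1.63), and CA4 was at −0.61.

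Each miRNA array minus the day 7 control differs in both day and treatment, which cannot be told apart, and the values are given beside the others for that reason alone. With 4 miRNAs, 3 of the 8 genes were called lower (CEACAM7, AQP8 and SLC26A3) and 0 higher, where 4.15% of expressed genes were called lower and 5.63% higher. With 2 miRNAs, 4 were called lower (AQP8, CEACAM7, SLC26A3 and RNF186) and 0 higher, where 4.03% were called lower and 6.19% higher. All 8 were below 0 in both, with medians of −0.63 with 4 miRNAs and −1.18 with 2 miRNAs. With arrays scaled to a common median, CA2 and SLC51B were at 0.15 and 0.11 with 4 miRNAs, above 0.

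The order day 7 control, 4-miRNA array, 2-miRNA array, day 5 control, from high to low, was counted after it had been seen in SLC26A3 and AQP8. It was present in 7 of the 10 genes on the probe set that stands for the gene (SLC26A3, AQP8, CA2, CEACAM1, SLC51A, SLC51B and RNF186) and in 10 of the 18 probe sets. These counts are without the filter, which SLC51A did not pass. Of all 19775 named genes 4.10% had this order, and of expressed genes 3.85%. Among the 411 expressed genes called higher in the day 7 control it was present in 117 (28.5%), among them 4 of the 5 called genes described here, CEACAM7 being the other one.

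The scaling of the arrays moved the counts over all genes more than those of these genes. As deposited, the trimmed mean was 150.0 with 4 miRNAs and 147 with 2 miRNAs, against 74.3 and 76.6 in the day 7 and day 5 controls, so that brightness and miRNA treatment coincided and cannot be told apart. The highest deposited signal was similar on all arrays (17832 to 18749), while no probe set of the 10 genes was above 754. GAPDH and ACTB, bright genes that every cell uses, were at −0.81 and −0.75 with 4 miRNAs and at −0.74 and −0.88 with 2 miRNAs minus the day 5 control. Of all calls against the day 5 control, 54.5% were higher with 4 miRNAs and 56.0% with 2 miRNAs. Scaled to a common median these shares were 81.0% and 76.5%, and after centring by a running median over signal level 66.6% and 66.7%. Against the day 7 control the shares were 57.6% with 4 miRNAs and 60.6% with 2 miRNAs, 82.4% and 78.1% with the common median, and 71.9% and 71.5% with the running median. Between the miRNA arrays 44.0% of calls were higher with 4 miRNAs, 55.6% with the common median and 54.0% with the running median. The common median put the median of all genes with 4 miRNAs minus the day 5 control at 0.12. Quantile normalization, the common median and the running median each gave the same counts of the 8 genes called higher than the day 5 control. These were 5 in the day 7 control, 4 with 4 miRNAs and 4 with 2 miRNAs. Of all expressed genes, 3.28% to 3.55% were then called higher in the day 7 control. The shares were 8.48% to 12.6% with 4 miRNAs and 8.44% to 10.9% with 2 miRNAs.

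The label of a surface cell was set against other markers. All 9 genes of intestinal epithelial identity, such as VIL1 and CDH17, were expressed on every array and none was 2-fold apart in any comparison. Under the other 3 scalings 1 of the 9, EPCAM, was called higher than in the day 5 control with 4 miRNAs (1.02 to 1.11, against 0.74) and with 2 miRNAs (up to 1.20, against 0.82). Of 22 further surface colonocyte genes on the array, 14 were expressed, but MS4A12 and CLCA4, which define surface colonocytes in tissue, did not pass the filter, as CA4 did not. Their summed signal was 109435 and 104114 with 4 and 2 miRNAs, against 201302 and 110796 in the day 7 and day 5 controls. A single gene, FABP1, carried much of this sum, and without it, an alternative chosen after seeing the data, the sums were 63755 and 57791 with 4 and 2 miRNAs, against 91341 and 53892 in the day 7 and day 5 controls. The miRNA arrays were thus below the day 5 control with FABP1 and above it without, on signals scaled to the trimmed mean. The sums were not computed under the other scalings, and the FABP1 difference from the day 7 control moved with the scaling, as given below. In the day 7 control minus the day 5 control 1 of the 14 was called higher (TSPAN1, a tetraspanin, 1.32) and 0 lower, with a median of 0.40, and with 4 or 2 miRNAs none was called, with medians of 0.35 and 0.22. With 4 miRNAs quantile normalization gave 1 called gene, CDHR5, which passed the filter there. The common median gave 2 (CDHR5 and HSD11B2, median 0.61) and the running median 0. In the day 7 control 2 genes, TSPAN1 and CDHR5, were called under quantile normalization and under the common median (medians 0.44 and 0.62). Without the filter 3 of the 22 were called higher there and 0 lower. CDHR5 had 155 and 41.2 with 4 and 2 miRNAs, against 244 and 7.74 in the day 7 and day 5 controls. That is the order of SLC26A3, with 41.2 and 7.74 under the array median. KRT20, the keratin of mature surface cells, had 20807 and 18784 with 4 and 2 miRNAs, against 27245 and 14215 in the day 7 and day 5 controls (0.94 for the day 7 control, 0.55 and 0.40 with 4 and 2 miRNAs). FABP1, which binds fatty acids in the cytosol, had its highest signal in the day 7 control (109961) and lower ones with 4 and 2 miRNAs (−1.27 and −1.25 minus the day 7 control, but −0.32 and −0.36 under quantile normalization). No test of a gap between these genes and the 10 was possible, and a choice of the 10 by their differences would itself give one.

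Markers of other cells were read on the same arrays. Fibroblast, leukocyte and endothelium markers summed to 483, 327 and 235 with 4 miRNAs, 246 to 386 with 2 miRNAs, 405 to 545 in the day 7 control and 313 to 682 in the day 5 control, with between 3 and 6 of each list under the median; of the defining ones COL3A1, DCN, PTPRC and CDH5 did not pass the filter, and COL1A1, COL1A2, CD3E, LCP1 and PECAM1 did. COL1A1 had 158 and 157 with 4 and 2 miRNAs, against 288 and 309 in the day 7 and day 5 controls, and the part of these cells in the results was not tested. Goblet cell markers had their highest summed signal in the day 7 control, as most of these genes did, but with 2 miRNAs the sum was below the day 5 control: it was 45892 and 36346 with 4 and 2 miRNAs, against 77682 and 39122 in the day 7 and day 5 controls, and their part in the result was not tested. Among them TFF3, a trefoil peptide of mucus, was called higher in the day 7 control (2.18) and with 4 miRNAs (1.15), and ZG16, a mucus lectin, in the day 7 control (1.58). Other goblet genes were below 0 with 4 and 2 miRNAs minus the day 5 control: CLCA1 was at −1.56 and −1.58, FCGBP at −0.60 and −1.09 and MUC2 at −0.58 and −0.83. Above 0 in the same comparisons were SPDEF (0.80 and 0.41), ZG16 (0.72 and 0.03) and AGR2 (0.11 and 0.05). The ratio of 3′ to 5′ signal of actin, a sign of RNA integrity, was 1.97 and 2.28 with 4 and 2 miRNAs and 2.33 and 2.11 in the day 7 and day 5 controls.

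Genes that work beside the 10 were described list by list. The list named apical salt and water absorption had 9 expressed genes. It was broader than its name, as it also held CFTR, a channel of chloride secretion, and the basolateral SLC12A2, SLC4A2 and ATP1B1. Against the day 5 control 1 was called higher in the day 7 control, 1 with 4 miRNAs and 1 with 2 miRNAs. Each time it was SLC26A2, a sulphate transporter related to SLC26A3. Its signal was 13006 and 14111 with 4 and 2 miRNAs, against 17612 and 5698 in the day 7 and day 5 controls, so that the day 5 control stood alone as for SLC51B. The differences were 1.62 for the day 7 control, 1.19 with 4 miRNAs and 1.30 with 2 miRNAs. NHERF1, the scaffold that holds apical transporters in place, had 2688 with 4 miRNAs and 1128 with 2 miRNAs, against 2485 and 2455 in the day 7 and day 5 controls, and was called lower with 2 miRNAs (−1.10, and −0.92 with the common median). SCNN1G, a subunit of the epithelial sodium channel, was at least 1.37-fold lower with 4 miRNAs, a call that was lost under the running median (−0.90); under the other 2 scalings it did not pass the filter. ATP1B1, a subunit of the sodium pump, passed the limit under the other scalings alone (1.21 to 1.37 with 4 miRNAs and 1.03 to 1.22 with 2 miRNAs). The list's median was 0.02 for the day 7 control. With 4 miRNAs it was −0.34, the value of CFTR itself, and 0.18 with arrays scaled to a common median. With 2 miRNAs it was −0.11 (0.03 with the running median). As the list also held genes of secretion and of the basolateral membrane, no change of absorptive genes is read from these medians.

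Of the other aquaporins only AQP3 and AQP11 were expressed, and neither was called: AQP11 was at 0.57 in the day 7 control and 0.54 and 0.41 with 4 and 2 miRNAs, and AQP3 at −0.02, 0.34 and 0.03. Of 6 other expressed carbonic anhydrases, CA13, a cytosolic form, was called higher with 4 and 2 miRNAs (1.22 and 1.45, 708 and 837 against 285 in the day 5 control) and was at 0.62 in the day 7 control. CA1, the other abundant cytosolic form of colonocytes, was at least 2.17-fold lower with 4 miRNAs (53.9 against 178), and CA7 at least 2.14-fold lower in the day 7 control. CA12, a membrane form, was within 2-fold throughout (0.39 for the day 7 control, 0.08 and −0.38 with 4 and 2 miRNAs).

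CEACAM5 and CEACAM6, the bright members of the CEACAM family in colon tumours, were within 2-fold: CEACAM5 was at 0.51 in the day 7 control, 0.16 with 4 miRNAs and −0.20 with 2 miRNAs, and CEACAM6 at 0.48, 0.71 and 0.53. Of the 5 other expressed family members CEACAM3 was called lower in the day 7 control (−1.01, and −0.99 with the common median). CEACAM19 was at least 2.24-fold lower with 4 miRNAs, at −1.14, but was between −0.99 and −0.92 and not called under the other 3 scalings. GUCY2C, the receptor of guanylin, had 5396 and 5362 with 4 and 2 miRNAs, against 6040.4 and 4074 in the day 7 and day 5 controls, all within 2-fold, and GUCA2B, which encodes uroguanylin, did not pass the filter. The list around this receptor had 5 expressed genes, GUCY2C, PRKG1, PRKG2, PDE5A and GUCA1A, the last known as an activator of guanylate cyclases in photoreceptors and not of GUCY2C. Against the day 5 control 0 of them were called higher, and 2 were called lower in the day 7 control (PRKG2 and PRKG1), 1 with 4 miRNAs and 1 with 2 miRNAs (PRKG2). PRKG1 was at least 1.24-fold higher with 4 miRNAs than in the day 7 control. PRKG2, a cyclic GMP-dependent kinase downstream of the receptor, had its highest signal in the day 5 control (296). It was at least 2.99-fold lower in the day 7 control, at least 3.63-fold lower with 4 miRNAs and at least 3.39-fold lower with 2 miRNAs. Of 7 other expressed genes of bile acid handling none was called against the day 5 control, and the medians were −0.00 for the day 7 control, −0.39 with 4 miRNAs and −0.46 with 2 miRNAs.

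**Figure D3:**
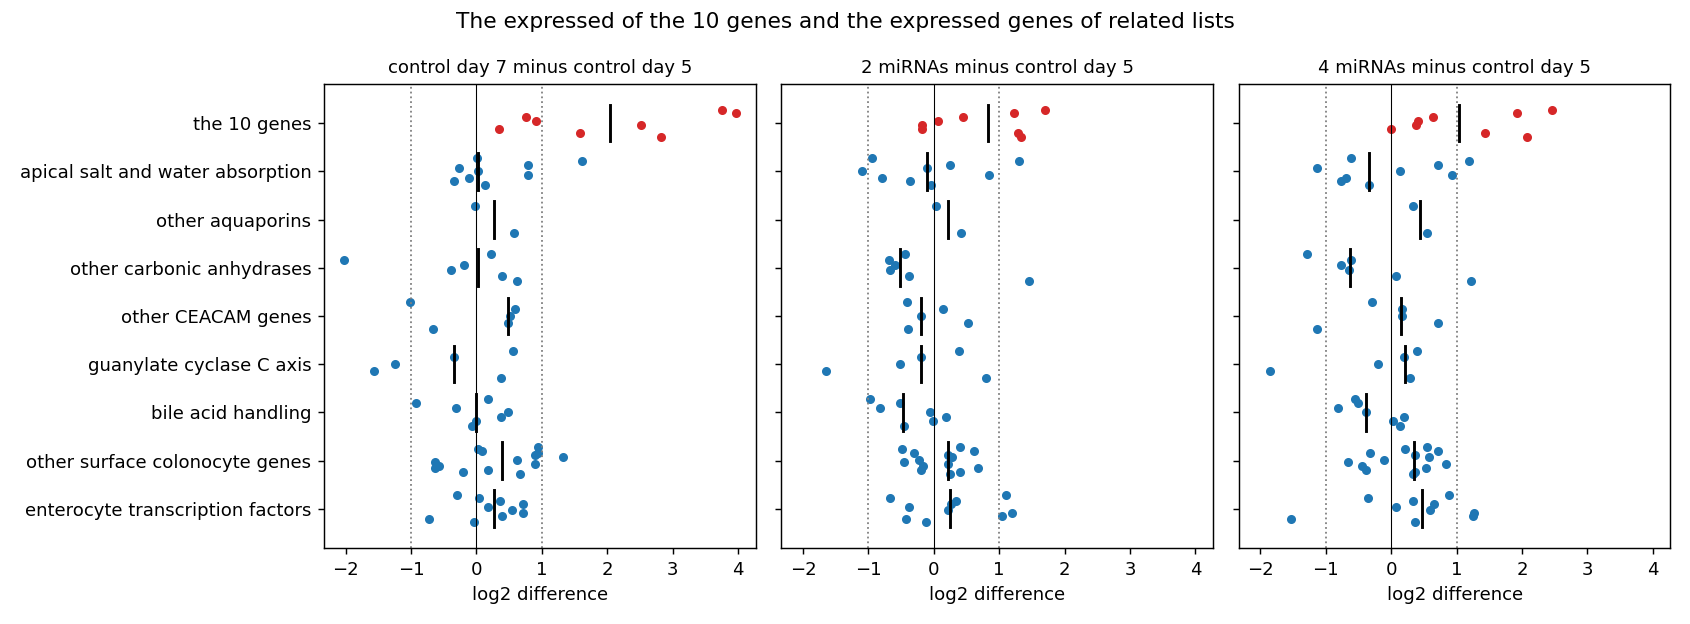
Log2 differences from the day 5 control of the expressed ones of the 10 genes (red) and of the expressed genes of 8 related lists (blue), each point a gene and each black bar the median. The medians of the 10 genes' row lie at 2.04, 0.84 and 1.03 in the panels for the day 7 control, 2 miRNAs and 4 miRNAs, and those of the related lists lie within 1 of 0.

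Among 10 expressed transcription factors of enterocytes 0 were called in the day 7 control, where the median was 0.27. With 4 miRNAs 2 were called higher and 1 lower (median 0.48): GATA6 at 1.25, GATA4 at least 1.83-fold higher, and FOXA1 at −1.53 (99.9 against 349.6 in the day 5 control). With 2 miRNAs 3 were called higher and 0 lower (median 0.25): HNF4G at 1.10, GATA6 at 1.05 and GATA4 at least 1.73-fold higher. CDX2, the factor that sets intestinal identity, was at 0.36 in the day 7 control and 0.34 with 4 and with 2 miRNAs. HNF4A was not analysed here.

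The genes nearest to SLC26A3 over the 4 arrays were sought among 12256 other expressed genes, by the Euclidean distance between log2 values after each gene was centred on its own mean. Among the 10 genes AQP8 (0.62) and RNF186 (0.67) were nearer to SLC26A3 than any other gene. Outside them came CYP4F2, a fatty acid hydroxylase (0.92), VIM, the intermediate filament vimentin (0.98), SLC29A4, a monoamine transporter (0.98), and LGI4, a secreted protein (1.03). Nearest to AQP8 were SLC29A4 (1.09), VIM (1.21), TFF3 (1.27) and WDR93 (1.34), with SLC26A3 at 0.62, RNF186 at 1.07 and CEACAM7 at 1.28 among the 10. CYP4F2 had 317 and 123 with 4 and 2 miRNAs, against 324 and 12.8 in the day 7 and day 5 controls, and so was almost as high with 4 miRNAs as on day 7, unlike SLC26A3. TFF3, by contrast, had 6021 and 3663 with 4 and 2 miRNAs, against 12339 and 2696 in the day 7 and day 5 controls, the order of AQP8. With 4 arrays such a likeness rests on 4 points that all genes share. The 10 genes were also chosen with their differences between these arrays known. Nothing is therefore read from how near they were to each other.

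**Figure D4:**
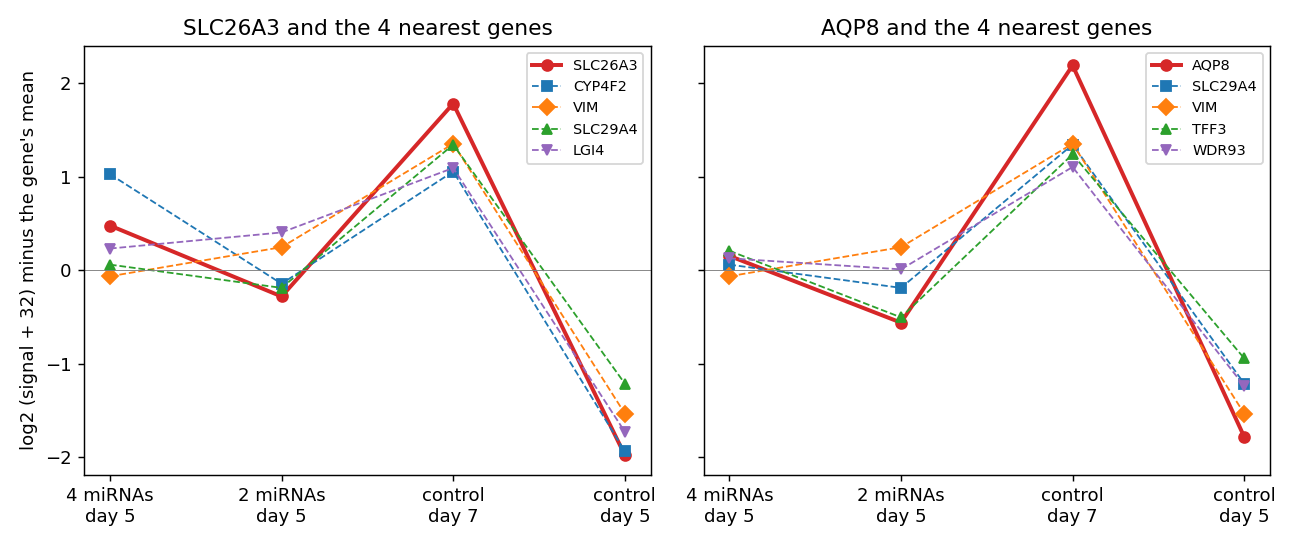
Log2 of scaled signal plus 32 minus the gene's own mean, on the 4 arrays, for SLC26A3 (left, red) and AQP8 (right, red) and the 4 nearest genes outside the 10 (dashed). All genes shown are lowest on the day 5 control, where those outside the 10, except TFF3, are under the array median. They are highest on the day 7 control or, for CYP4F2, close to equal on the day 7 control (324) and the 4-miRNA array (317).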

How the data were processed

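T84 RNA was measured on 4 arrays, 1 per group, grouped by the treatment and time labels. The authors deposited a linear intensity per probe set and array, 54675 to an array, which per the submitters' processing notes came from MAS5. The sources used here state neither its version nor its scaling target. As the trimmed means differed, each deposited intensity was multiplied by a factor per array (3.33 with 4 miRNAs, 3.39 with 2 miRNAs, 6.73 and 6.53 in the day 7 and day 5 controls) that set the mean without the lowest and highest 2% to 500. The log2 values were taken of these scaled signals, made from the deposited ones, plus a pseudocount of 32, which understates the fold of dim genes. Brightness, not counts, carries the depth of an array, so no counting interval applies.

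Of the probe sets, 41097 had 1 gene, 1801 several (left out) and 11777 none here, and the gene IDs of 41043 were found in NCBI's table of GRCh38.p14 genes. A probe set passed the filter with a mean log2 no lower than the overall median, or with a signal past the 75th percentile on at least 1 array. Each of the 12264 genes left was represented by its brightest probe set. Differences of 1 or more on the log2 scale were called, with no p-value. Signals under the median of an array gave a lower bound, the brighter signal over that median.

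Genes were named by a rule: the 10 genes throughout, up to 4 called genes per related list and comparison, a few fixed genes of each family, GAPDH, ACTB and the 4 genes nearest to SLC26A3 and to AQP8. The 10 genes, the lists, the markers and the motifs were chosen with earlier results of these data known. Alternatives were quantile normalization, a common median, a running median over 1001 probe sets, pseudocounts of 8 and 100, the median over probe sets, no filter and a 70th percentile filter. On simulated data with little noise, 200 of 200 changes of 4-fold planted in bright genes with 1 probe set were called. Changes of that size do not test calls near the limit or on dim genes. Python 3.11.15, numpy 2.4.6, pandas 2.3.3, scipy 1.17.1 and matplotlib 3.10.9 were used.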

Additional observations from a re-analysis of the deposited data

How the results depend on the processing

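With 1 array per group no array could be left out, and the alternatives test the processing alone. No paired analysis was possible because each group held 1 array. A median or a difference was within its limit if it shifted by less than the probe set SD of that comparison over the square root of 2. Counts and shares were compared as ratios. Of 144 recomputed counts and medians of the 10 genes, 141 stayed within these limits and 3 did not. The median for the day 7 control minus the day 5 control was 1.38 with a pseudocount of 100 and 2.51 with the 70th percentile filter, against 2.04. With no filter, 1 gene (SLC51A) in place of 0 was at least 2-fold higher with 4 miRNAs than with 2. Medians within the limits still varied. With 4 miRNAs minus the day 5 control the median ran from 0.64 to 1.43, against 1.03. With 2 miRNAs it ran from 0.36 to 1.13, against 0.84. Of 360 recomputed differences of single genes 336 stayed within those limits, 24 moved past them, and none with a main difference of 1 or more changed sign. Among smaller ones 8 changed sign: GUCA2A with 4 miRNAs minus the day 5 control under 3 scalings (0.02 to 0.26, against −0.00), CA2 and SLC51B as given above, and with the median over probe sets CEACAM7 with 2 miRNAs minus the day 5 control (1.53), CEACAM1 with 4 minus 2 miRNAs (−0.60) and CA4 with 2 miRNAs minus the day 7 control (0.20). The limit was crossed in 7 cases: with the median over probe sets by CEACAM7 with 4 and 2 miRNAs minus the day 5 control and by CEACAM1 for the day 7 control minus the day 5 control (1.16) and with 4 miRNAs minus the day 7 control (−1.12); with a pseudocount of 100 by SLC51B with 2 miRNAs minus the day 5 control (0.97) and SLC51A with 4 minus 2 miRNAs (0.98); and with a pseudocount of 8 by CA4 with 4 miRNAs minus the day 7 control (−1.04). The 70th percentile filter left 7 genes, without SLC51B, of which 4 were called higher than the day 5 control in the day 7 control and 3 with 4 and with 2 miRNAs. Shares over all expressed genes moved more, 30 of 96 of them. The share called higher in the day 7 control than in the day 5 control was 7.51% with no filter and 1.68% with a pseudocount of 100 or the 70th percentile filter, against 3.35%, and the share called lower was 6.73%, 0.921% and 0.487%, against 2.41%. Between the miRNA arrays the share called higher with 4 miRNAs was between 0.170% and 3.54%. The cause of these moves was not tested, apart from the construction of each setting. Signals under the array median, as those of CA4 and of SLC51A on 2 arrays, limit what can be said of these genes.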

Other observations

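Against the day 5 control, 1 of 9 crypt and stem cell genes on the array was called lower in the day 7 control. With 4 miRNAs 3 were called lower and with 2 miRNAs 1, and 0 were called higher. Of all expressed genes 2.41%, 6.70% and 6.37% were called lower in these comparisons. The medians of the 9 were −0.04, −0.45 and −0.32, and 4, 2 and 2 of them were above 0. With the common median and with the running median 2 in place of 3 were called lower with 4 miRNAs, and with quantile normalization 2 in place of 1 with 2 miRNAs. SMOC2, a secreted protein of crypt base cells, had 101 and 149 with 4 and 2 miRNAs, against 252 and 609 in the day 7 and day 5 controls, so that the day 5 control was highest and both miRNA arrays were below the day 7 control. SP5, which responds to Wnt signalling, had 39.8 with 4 miRNAs against 509 in the day 5 control, a fold of at least 6.24. EPHB3, a receptor that positions crypt cells, was at −1.10 with 4 miRNAs (−0.83 with the common median and −0.96 with the running median). Others of the list did not fall: ASCL2 was at 0.36 in the day 7 control and 0.34 and 0.18 with 4 and 2 miRNAs. OLFM4 was at 0.43, −0.02 and 0.40.

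Of 7 goblet cell genes, 2 were called higher in the day 7 control than in the day 5 control and 0 lower. With 4 miRNAs 1 was called higher (TFF3) and 1 lower (CLCA1, at −1.56, a secreted protease of mucus), and with 2 miRNAs 0 were called higher and 2 lower (CLCA1 at −1.58 and FCGBP, a mucus protein, at −1.09, or −0.90 with the common median). With the common median SPDEF and ZG16 were also called higher with 4 miRNAs (1.06 and 1.01). Against the day 7 control 4 were called lower with 4 miRNAs and 5 with 2 miRNAs, with medians of −1.03 and −1.33; with the common median or the running median 2 were called lower with 4 miRNAs. The 4 expressed enteroendocrine genes were within 2-fold in every comparison with the scaling to the trimmed mean, with medians of 0.37 and 0.14 for 4 and 2 miRNAs minus the day 5 control and −0.27 for the day 7 control. Under the other 3 scalings SCG2, a secretory granule protein, was called higher with 4 miRNAs than in the day 5 control (1.02 to 1.24, against 0.98) and in the day 7 control (1.03 to 1.22, against 0.97).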
